A study of Mus musculus with 4 samples.

Results

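Hca-F, a mouse hepatocarcinoma line labelled with the higher ability to spread to lymph nodes, was set against Hepa1-6, a mouse hepatoma line labelled as lacking that ability, over the mature miRNAs of each. A miRNA was kept where its background-subtracted intensity was 50 units or more in at least 1 of the 2 lines, which left 81 of the 414 mouse miRNA names on the array. Of these 81, 64 were measured in both lines, 10 in Hca-F alone and 7 in Hepa1-6 alone. The other 333 were under 50 units in both. Both lines were untreated, and total RNA was taken with TRIzol. Per the labels, Hca-F derives from H22, grows in suspension, was passaged in the abdominal cavity of 615-mice and recovered from ascites, and was then kept in RPMI-1640. Hepa1-6 is adherent, came from a cell bank and was kept in DMEM. Metastatic ability, growth form, origin, medium and passage in a host therefore differ together between these lines and cannot be told apart. H22, a suspension line without lymphatic metastasis, and Hca-P, a suspension line derived from H22 with a lower metastatic ability, were profiled in the same study and are cited only for context.

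A miRNA is a short RNA that guides Argonaute proteins to messenger RNAs, mostly through its seed, bases 2 to 8 counted from the 5′ end, and lowers the output of the messages it pairs with. miRNAs with the same seed form a family and share many targets, and miRNAs encoded close together are often cut from 1 primary transcript. In liver tumours the let-7 family is known for restraining growth genes, the miR-17-92 cluster is known as a MYC-driven growth cluster, and the miR-34 family is known as a set of p53 targets.

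The mature sequences of the miRNAs on which the comparison turns are shown here from RefSeq (build GRCm38.p6), with the seed in capitals. The array names most of its miRNAs without saying which arm of the hairpin is meant; the arm given here is the one the old name stands for in later nomenclature, and the deposited files do not state it. In all, 62 of the 81 names matched a RefSeq entry. The first 5 share the seed of let-7 and are shown because this family had the most measured members and because they differ by only 1 or 2 bases from let-7a.
let-7a-5p: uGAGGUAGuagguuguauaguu
let-7c-5p: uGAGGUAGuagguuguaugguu
let-7b-5p: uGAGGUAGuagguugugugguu
let-7d-5p: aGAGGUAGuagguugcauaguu
let-7e-5p: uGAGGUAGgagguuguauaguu
Counted from the 5′ end, and with the base of let-7a first, let-7c carries A19G, let-7b carries A17G and A19G, let-7d carries U1A and U16C, and let-7e carries U9G. These positions all lie outside the seed. The next 3 share the seed of the miR-17 family and are shown because miR-17 had 1 of the largest differences.
miR-17-5p: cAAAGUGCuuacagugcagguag
miR-20a-5p: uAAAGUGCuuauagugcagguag
miR-106b-5p: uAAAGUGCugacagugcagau
The next pairs share a seed and had different folds.
miR-125a-5p: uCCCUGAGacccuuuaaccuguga
miR-351-5p: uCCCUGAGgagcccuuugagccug
miR-214-3p: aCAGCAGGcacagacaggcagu
miR-761: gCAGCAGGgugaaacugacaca
The last 6 are single miRNAs with large differences, the first 4 higher in Hca-F and the other 2 lower.
miR-710: cCAAGUCUuggggagaguugag
miR-193a-3p: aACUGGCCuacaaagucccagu
miR-762: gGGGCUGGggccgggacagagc
miR-129-5p: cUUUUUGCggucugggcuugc
miR-341-3p: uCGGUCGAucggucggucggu
miR-207: gCUUCUCCuggcucuccucccuc

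A level is the mean background-subtracted intensity of the 4 spots of a probe divided by a factor for its array, so that 1 is the median of the reference probes of that array. The error beside each level is the SD over the 4 spots. It describes the evenness of 1 array and not the spread between cultures, since each line was measured on 1 array. No test and no p-value is therefore given. A value under 50 units was set to 50, a level of 0.154 in Hca-F and 0.124 in Hepa1-6, and the fold then shows only a minimum size, marked by "at least". A fold is Hca-F over Hepa1-6 where Hca-F was higher and the inverse where it was lower, while a log2 fold is always Hca-F over Hepa1-6. Levels of different probes cannot be ranked against each other, because each probe binds its miRNA with its own strength.

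The 4 arrays of the study fell into 2 technical pairs. The array carried 160 spots of the Hy3 dye itself, and at all but 17 of them Hepa1-6 and H22 lay within 5 units of each other, as Hca-F and Hca-P did at all but 5, at median intensities of 12530.5, 12533.5, 13657 and 13659.5. Hca-F and Hepa1-6 differed by over 100 units at 152 of these spots. The deviations of single spots from their probe's mean had a Pearson r of 0.661 for H22 with Hepa1-6 and 0.666 for Hca-P with Hca-F, against 0.214 for Hca-F with Hepa1-6 over 334 probes. These correlations are across spots of 2 arrays and are a description only. The labels do not say what the arrays of a pair share, so the comparison of Hca-F with Hepa1-6 also runs between the pairs, and that difference cannot be told apart from the difference between the lines. The pairs also divide the 2 lines with lymphatic metastasis from the 2 without it. A likeness of Hca-P to Hca-F, or of H22 to Hepa1-6, therefore cannot be told apart from the pairs either.

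The labelled tissue was not visible in the defining miRNAs. None of the 8 hepatocyte probes on the array reached 50 units in either line. The highest gave 21 units in Hca-F and 39 units in Hepa1-6, and miR-122, the most abundant miRNA of normal liver, gave 12.2 and 33 units. Leukocyte miRNAs, which could be carried over from ascites, were also under the minimum, with all 7 probes at 23.2 units or less in Hca-F and 5.5 units or less in Hepa1-6. Their summed intensity was 99.5 units in Hca-F and 17.2 units in Hepa1-6. The 3 erythroid and 2 endothelial probes did not reach 50 units in either line. miR-21, known to be abundant in many tumour lines, was also under the minimum, with 10.5 units in Hca-F and 7.5 units in Hepa1-6. The median over all mouse probes was 7.5 units in Hca-F and 3.5 units in Hepa1-6.

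Most members were within 2-fold between the lines. At a threshold of 2-fold, 30 of the 81 were apart, which is 37% of all members tested. Of these, 22 were higher in Hca-F (27.2%) and 8 were lower (9.88%), while 51 were within 2-fold. These percentages are also the background against which the lists named further on are read. Across the 64 members measured in both lines, log2 levels correlated at r = 0.884, over probes of 2 arrays, which are not independent replicates. The median log2 fold was 0.40, with quartiles of -0.24 and 1.09, and 53 members lay above 0 and 28 below. By each of the 4 spot sets alone the median was 0.32, 0.52, 0.40 and 0.43. Since the median itself lay above 0, the split between higher and lower depends on scaling. After centring on the median of the members, 10 were higher by 2-fold or more and 12 lower, and after quantile normalization 9 were higher and 10 lower. The 10 that were higher after centring were miR-710, miR-17, miR-320, miR-193, miR-762, miR-720, miR-801, miR-709, miR-129-5p and miR-805. The scatter of levels shows both groups.

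**Figure D1:**
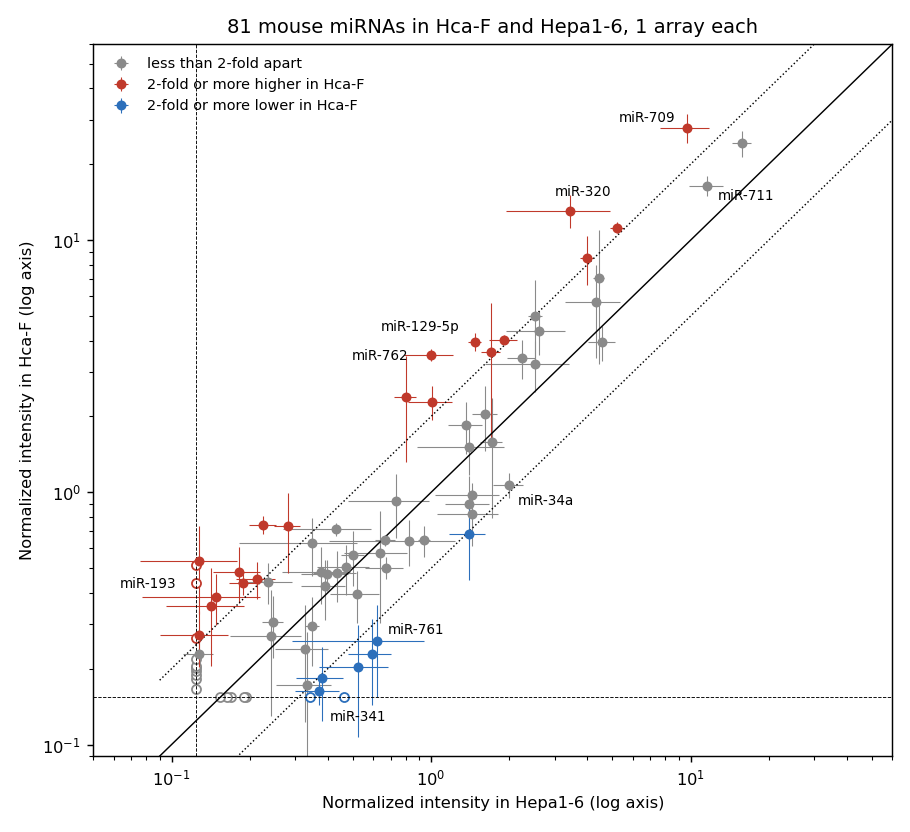
Level in Hepa1-6 (horizontal, log scale, median of reference probes = 1) against level in Hca-F (vertical, log scale) for the 81 members, with bars of the SD over 4 spots, dotted lines at 2-fold and open points at the floor of 1 line (dashed). Most points lie near the line of equal levels, and 22 lie 2-fold or more above it against 8 below.

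The spots of the 2 lines did not overlap for 45 of the 81 members (55.6%). They did not overlap for 19 of the 22 that were higher in Hca-F and for 7 of the 8 that were lower, but also for 19 of the 51 within 2-fold. The exceptions were miR-690, miR-370 and miR-801 among the higher and miR-761 among the lower. The median coefficient of variation of the spots was 23.3% in Hca-F and 19.2% in Hepa1-6. The difference in level exceeded 2 combined spot SDs, on the linear scale, for 15 of the 22 higher and 5 of the 8 lower. On the log2 scale, with the SD of the folds of the 4 spot positions, the same held for 19 and 6.

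The largest measured differences towards Hca-F were those of miR-710 and miR-320. miR-710 was at 0.533 ± 0.203 in Hca-F and at 0.128 ± 0.0517 in Hepa1-6, a difference of 4.18-fold (log2 2.06). Its spots ran from 0.234 to 0.678 in Hca-F and from 0.0594 to 0.183 in Hepa1-6 and did not overlap, but its level in Hepa1-6 lay just above the minimum. At a minimum of 100 units, which puts Hepa1-6 at the floor, its log2 fold was only a bound of 0.52. miR-320, a miRNA known to be made without Drosha cutting, was at 13.1 ± 1.96 in Hca-F and 3.42 ± 1.48 in Hepa1-6, or 3.83-fold (log2 1.94). Its Hca-F spots lay between 10.6 and 14.7, and the highest Hepa1-6 spot was 5.38. In this case the signal was far from the minimum in both lines, with 4251 units in Hca-F and 1380 units in Hepa1-6. Hca-P, in the same technical pair of arrays as Hca-F, had a level of 13.0, close to Hca-F. H22, paired with Hepa1-6, had 1.36, below Hepa1-6.

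miR-17 and miR-193 were measured in Hca-F alone. miR-17, the first miRNA of the miR-17-92 cluster, was at 0.515 ± 0.0811 in Hca-F, with spots from 0.422 to 0.616. In Hepa1-6 its measured level was 0.101 ± 0.044, which is under the minimum, so that the difference was at least 4.16-fold. miR-193, described in other tumours as restraining growth, was at 0.438 ± 0.0634 in Hca-F against a measured 0.0545 ± 0.025 in Hepa1-6, or at least 3.53-fold. Neither set of spots overlapped between the lines. At a minimum of 100 units the bounds fell to log2 folds of 0.47 for miR-17 and 0.23 for miR-193. In Hca-P both were higher than in Hca-F, at 1.21 for miR-17 and 0.659 for miR-193.

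The other measured members of the miR-17 family had smaller bounds. miR-20a lies 476 bases beyond miR-17 in the same cluster on chromosome 14 (chr14:115044183-115044205 after chr14:115043684-115043706, both on the plus strand). It was at 0.201 ± 0.105 in Hca-F and at a measured 0.0539 ± 0.023 in Hepa1-6, at least 1.62-fold higher. miR-106b, from the paralogous cluster on chromosome 5, was at 0.182 ± 0.057 and a measured 0.0774 ± 0.046, at least 1.47-fold higher. All 3 members of the 19 probes of this list were thus under the minimum in Hepa1-6 and above it in Hca-F, and 1 of the 3 passed 2-fold. Since they became members through Hca-F alone, their shared direction was set by the filter and adds no support to that of miR-17. The median log2 fold of the 3 was 0.70 as bounds. A further probe of the cluster, miR-18a, just missed the minimum with a highest intensity of 49.2 units. The remaining probes of the list were under 50 units in both lines and went in both directions. For example, miR-19b gave 23.25 units in Hca-F and 4.25 in Hepa1-6, while miR-93 gave 28.5 and 40.25.

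Members with bright signals and spots tighter than the median in Hca-F included miR-762, miR-709 and miR-129-5p. In Hepa1-6 the coefficient of variation was 21.4% for miR-762 and 21.5% for miR-709, above the median of 19.2%. miR-762 was at 3.51 ± 0.193 in Hca-F and 1.00 ± 0.214 in Hepa1-6, or 3.51-fold (log2 1.81), with spots from 3.29 to 3.73 against 0.728 to 1.23. miR-709, a mouse miRNA known to act in the nucleus on the miR-15a and miR-16-1 primary transcript, had the brightest signal of all members in Hca-F. Its level was 28.0 ± 3.70 in Hca-F and 9.72 ± 2.09 in Hepa1-6, or 2.88-fold. miR-129-5p, mostly known from brain, was at 3.96 ± 0.314 and 1.47 ± 0.0867, or 2.69-fold. It was the single member among 7 neuronal probes. After quantile normalization miR-709 and miR-129-5p fell under 2-fold, at log2 folds of 0.84 and 0.96. Both were also under 2-fold at a minimum of 100 units. The level in Hca-P was 5.41 for miR-762 and 3.98 for miR-129-5p, and the level in H22 was 0.519 and 1.06. For miR-709 the order was different, with 10.9 in Hca-P and 19.4 in H22.

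A fixed list held 3 probes whose names are now known to belong to pieces of other RNAs, and all 3 were higher in Hca-F. Whether other members also come from other RNAs was not tested. miR-720, a piece of a transfer RNA, was at 0.744 ± 0.0627 in Hca-F and 0.226 ± 0.0277 in Hepa1-6, or 3.29-fold. miR-801, a piece of the U11 small nuclear RNA, was at 2.39 ± 1.07 and 0.798 ± 0.0788, or 3.0-fold. Its Hca-F spots ran from 0.875 to 3.39, and the lowest of them fell among the Hepa1-6 spots. miR-805, which matches the mitochondrial genome, was at 0.485 ± 0.12 and 0.182 ± 0.0374, or 2.67-fold. The median log2 fold of these 3 was 1.58, against 0.40 over all members. In Hca-P the levels were 1.05, 3.77 and 0.452 and in H22 they were 0.232, 0.659 and a measured 0.0218 under the minimum, so that in each of the 3 both metastatic lines were above both lines without that ability. This split is also that of the technical pairs of arrays and cannot be told apart from it.

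miR-762 and miR-320 were the members that stayed 2-fold or more higher under all 10 settings of scaling, minimum, background and spot averaging tried. Their lowest log2 folds in those settings were 1.22 and 1.14. miR-801 and miR-720 had lowest log2 folds that round to 1.00. Both fell just short of 2-fold at a minimum of 100 units, where 2 members were called higher. None of the 8 lower members stayed 2-fold apart under all of them, since normexp background correction left no lower member at 2-fold. That setting adds an offset of 50 units to each spot, which shrinks the folds of dim members. How much of the loss came from the offset was not tested. Of the lower members, miR-341, miR-466d-3p, miR-207 and miR-761 kept 2-fold in 9 of the 10 settings and lost it under normexp alone. The other lower members kept it in 6 to 8 settings, and the higher members in as few as 3 of 9, for miR-490.

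**Figure D2:**
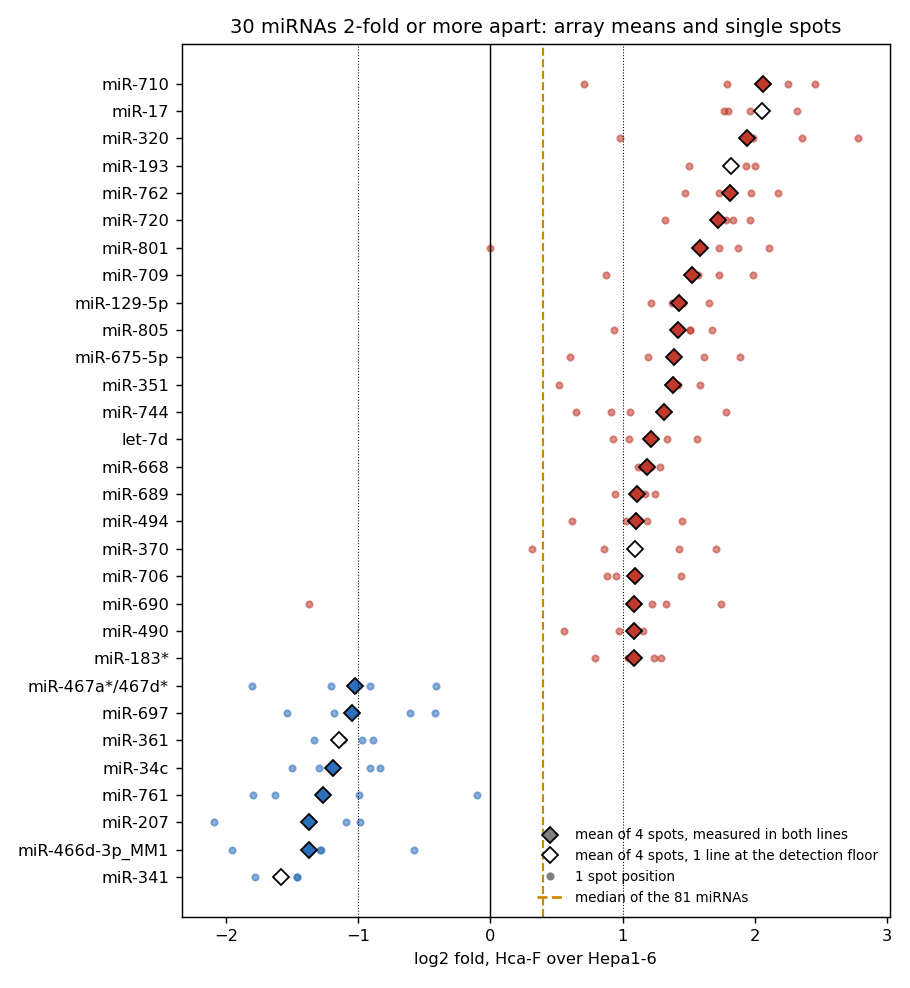
Log2 fold of Hca-F over Hepa1-6 for the members at 2-fold or more, in order of size, with a diamond for the mean of 4 spots, open where it is a lower bound, and a small point for each spot position. The 22 higher members run from 1.08 to 2.06 and the 8 lower from -1.02 to -1.58.

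The let-7 family, which holds down growth genes such as Ras and Hmga2, was close to even between the lines apart from let-7d. Of 12 probes on the array 5 were members, of which let-7d alone was 2-fold or more apart. The median log2 fold of the 5 was 0.37, near the 0.40 of all members, and it turned to -0.17 after quantile normalization and -0.03 after centring on the members. let-7c was at 3.42 ± 0.609 in Hca-F and 2.23 ± 0.272 in Hepa1-6, or 1.53-fold. let-7b was at 3.24 ± 0.75 and 2.5 ± 0.89, or 1.29-fold, and its spots overlapped. let-7a was at 0.475 ± 0.067 and 0.396 ± 0.0807, or 1.2-fold, and let-7e was at 0.572 ± 0.268 and 0.637 ± 0.175 with a log2 fold of -0.15. let-7d was at 0.438 ± 0.0452 in Hca-F and 0.189 ± 0.0222 in Hepa1-6, or 2.32-fold, with no overlap of spots, but it kept 2-fold in 4 of the 10 settings and was at a log2 fold of 0.74 after quantile normalization and 0.23 at a minimum of 100 units. After quantile normalization let-7a, let-7b and let-7c turned to -0.06, -0.60 and -0.48. let-7d lies 2139 bases from let-7a on chromosome 13 (chr13:48536078-48536099 and chr13:48538239-48538260, minus strand), so these neighbours had log2 folds of 1.21 and 0.26. The difference between the folds of let-7d and let-7a was 0.95 on the log2 scale, beside spot SDs of 0.29 and 0.40 for these folds. It was not set against their combined spread. let-7a has other copies in the mouse genome, and probes to sequences that differ by 1 or 2 bases may also read each other's RNA, which was not tested.

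Set beside the other lines, let-7a and let-7d were low in both Hca-F and Hepa1-6. let-7a was at 11.0 in H22 and 5.15 in Hca-P, and let-7d at 5.47 and 3.96. let-7c varied less, at 12.3 in H22 and 5.19 in Hca-P, and let-7b at 5.33 and 2.86. These are 1 array each, and the order of the 4 lines differs from probe to probe.

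**Figure D3:**
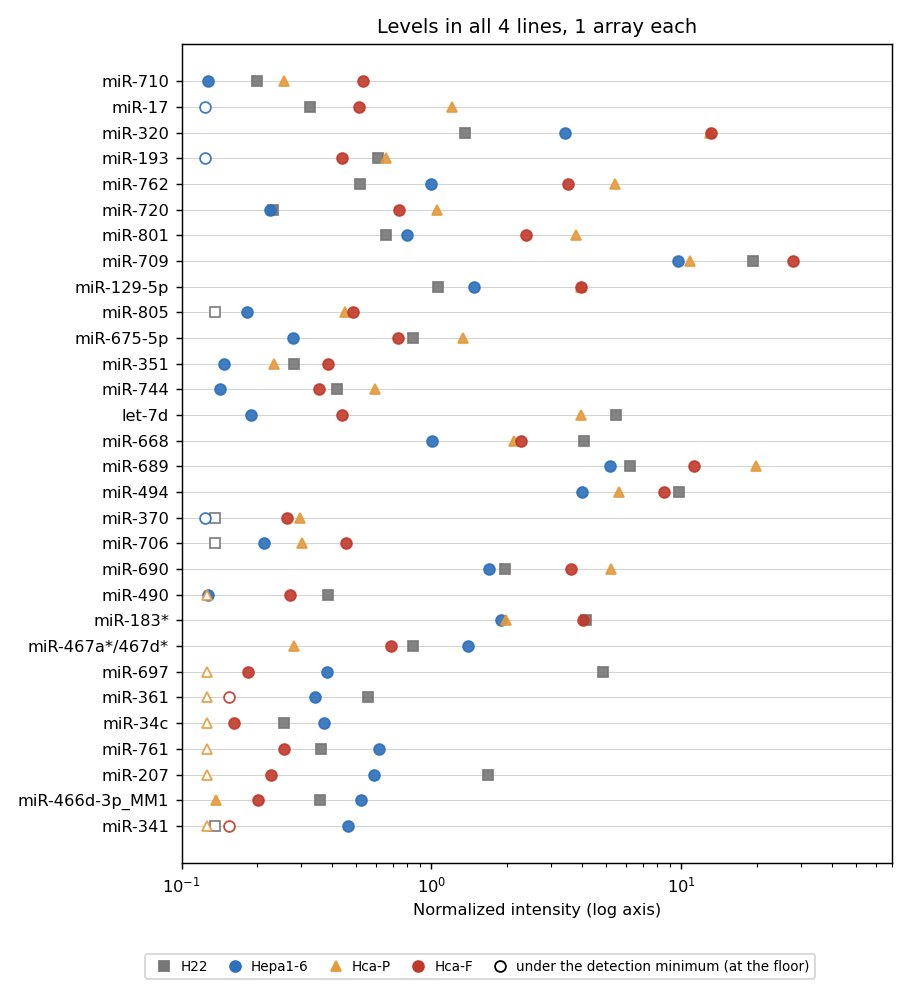
Level in each of the 4 lines (log scale, median of reference probes = 1) for the 30 members at 2-fold or more, with open symbols at the floor. For miR-320, Hca-P (13.0) lies beside Hca-F (13.1) and away from H22 (1.36). Hca-P and Hca-F also form a technical pair of arrays.

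miR-351 and miR-125a-5p share a seed and differed in direction. miR-351 was at 0.385 ± 0.0883 in Hca-F and 0.148 ± 0.0714 in Hepa1-6, or 2.60-fold, with a log2 fold of 1.38 that was 0.05 at a minimum of 100 units. miR-125a-5p was at 0.397 ± 0.093 and 0.519 ± 0.111, with a log2 fold of -0.39 and overlapping spots. miR-322, which lies 967 bases from miR-351 on chromosome X, was under the minimum in Hca-F and at 0.193 ± 0.0205 in Hepa1-6, at least 1.25-fold lower. let-7e on chromosome 17 lies between miR-99b*, 112 bases away, and miR-125a-5p, and miR-125a-5p, let-7e and miR-99b* had log2 folds of -0.39, -0.15 and -0.44. The spots of all 3 overlapped between the lines. The list of miR-99, miR-100 and miR-125 miRNAs, of which miR-125a-5p and miR-99b* were the 2 members on 8 probes, had a median of -0.41, and the list sharing the miR-15-16 seed, with miR-195 and miR-322 as the 2 members on 8 probes, had -0.16.

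miR-761 and miR-214 share a seed as well. miR-761 was at 0.257 ± 0.103 in Hca-F and 0.617 ± 0.324 in Hepa1-6, or 2.40-fold lower, but its Hepa1-6 spots ran from 0.188 to 0.954 and overlapped those of Hca-F. miR-214 was at 0.27 ± 0.14 and 0.241 ± 0.0742, with overlapping spots. Its log2 fold of 0.16 had no settled direction, since it was -0.10 after quantile normalization and -0.16 without scaling. It was the single member among 8 mesenchymal probes.

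The miR-34 family, which restrains the cell cycle downstream of p53, had 2 members among 3 names on the array, of which miR-34c was 2-fold or more lower in Hca-F. miR-34a was at 1.07 ± 0.126 in Hca-F and 2.0 ± 0.256 in Hepa1-6, 1.86-fold lower and thus within the 2-fold threshold, but its spots did not overlap. miR-34c was at 0.163 ± 0.0184 and 0.372 ± 0.0716, or 2.29-fold lower. The second probe that carries the name miR-34c was under 50 units in all 4 arrays, so its value rests on 1 of 2 probes that disagree. The log2 fold of miR-34c, -1.19, was -0.28 over the mean of both probes, -0.86 at a minimum of 100 units and -0.66 with normexp. H22 had 1.30 and Hca-P 0.515 for miR-34a.

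The miRNAs of the Dlk1-Dio3 region on chromosome 12, an imprinted region that encodes a large set of miRNAs, went in both directions. Of 46 probes 8 were members, with 3 higher by 2-fold or more, 1 lower and a median log2 fold of 0.43, which fell to 0.04 after quantile normalization and to -0.62 at a minimum of 100 units. None of the 3 higher calls held under quantile normalization, where miR-494, miR-668 and miR-370 had log2 folds of 0.44, 0.93 and 0.61, nor under the 75th percentile, all capture probes or no scaling. miR-494 was at 8.53 ± 1.90 in Hca-F and 3.99 ± 0.222 in Hepa1-6, or 2.14-fold. miR-668 was at 2.29 ± 0.353 and 1.01 ± 0.194, or 2.27-fold, and miR-370 was at 0.264 ± 0.155 against a measured 0.0731 ± 0.0627, at least 2.13-fold higher with overlapping spots. miR-341 was the lower of them, at a measured 0.0794 ± 0.0635 in Hca-F and 0.462 ± 0.0505 in Hepa1-6, at least 3.0-fold. miR-341 (chr12:109611556-109611576) and miR-370 (chr12:109618305-109618326) lie 6728 bases apart on the same strand and differed in opposite directions, with log2 folds of -1.58 and 1.09. miR-329 and miR-494, 1804 bases apart, had log2 folds of -0.80 and 1.1. miR-382, miR-667 and miR-770-3p were within 2-fold, at log2 folds of 0.72 as a bound, -0.21 and 0.14, the last of which was -0.14 after quantile normalization.

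The miRNAs in an intron of Sfmbt2, a large rodent cluster with many near-identical copies, were lower on balance. Of 8 probes 5 were members, 2 were lower by 2-fold or more and none higher, with a median log2 fold of -0.64. The shared probe of miR-467a* and miR-467d* was at 0.686 ± 0.235 in Hca-F and 1.39 ± 0.22 in Hepa1-6, or 2.03-fold lower. The miR-466d-3p probe, whose name carries an unexplained suffix, MM1, was at 0.203 ± 0.0956 and 0.524 ± 0.156, or 2.59-fold lower. The others were miR-467b* at 1.56-fold lower, miR-669a at 1.45-fold lower and miR-669c at 1.26-fold higher, which turned to a log2 fold of -0.26 at a minimum of 100 units. Since the copies differ by few bases, the probes may read each other's RNA.

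Further single miRNAs were lower in Hca-F. miR-207 was at 0.229 ± 0.0858 in Hca-F and 0.591 ± 0.11 in Hepa1-6, or 2.58-fold, and miR-697 at 0.184 ± 0.0603 and 0.381 ± 0.0783, or 2.07-fold. miR-361 was at a measured 0.117 ± 0.0422 and 0.341 ± 0.0548, at least 2.21-fold lower. The spots of these 3 did not overlap between the lines. All 8 lower members were dim, with the shared probe of miR-467a* and miR-467d* the brightest at 563 units in Hepa1-6 and the other 7 at 249 units or less.

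Additional members were higher in Hca-F. miR-675-5p, cut from the imprinted H19 RNA, was at 0.734 ± 0.256 in Hca-F and 0.28 ± 0.0317 in Hepa1-6, or 2.62-fold, and kept 2-fold in 9 of the 10 settings. The call was kept in fewer settings by the others of this group: 5 of 10 each for miR-744, miR-183*, miR-690 and miR-689, 4 of 10 for miR-706 and 3 of 9 for miR-490. Without scaling, miR-744 was just under 2-fold, at a log2 fold that rounds to 1.00. miR-744 was at 0.354 ± 0.149 and 0.142 ± 0.0474, or 2.48-fold, and the second probe of this name was under 50 units in both lines. miR-183*, the passenger strand of miR-183, was at 4.03 ± 0.164 and 1.90 ± 0.232, or 2.12-fold. The miR-183 probe itself gave 8.5 units in Hca-F and 9.5 units in Hepa1-6, under the minimum in both. miR-689 was at 11.2 ± 0.584 and 5.20 ± 0.316, or 2.16-fold, and its spots were among the tightest, yet quantile normalization turned its log2 fold to -0.17. miR-690, at 3.61 ± 2.01 and 1.70 ± 0.14, was 2.13-fold higher with an Hca-F spot at 0.641 below all Hepa1-6 spots. miR-706 and miR-490 were each 2.13-fold higher with spots that did not overlap.

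miR-1, a muscle miRNA, came closest to the threshold without passing it, at 5.02 ± 1.92 in Hca-F and 2.51 ± 0.153 in Hepa1-6, or 1.995-fold. miR-206, which shares its seed, was at 0.975 ± 0.112 and 1.43 ± 0.395, with a log2 fold of -0.56. These were the 2 members among 6 muscle probes.

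Lists named for metastasis held few members. Among 10 probes of miRNAs reported to promote metastasis in various cancers, miR-183* was the single member. Among 16 probes of miRNAs reported to restrain it, 4 were members, none was 2-fold or more apart in either direction and their median log2 fold was -0.43. These were miR-34a, miR-206, miR-31 and miR-200b*. miR-31 was at a measured 0.0455 ± 0.0284 in Hca-F and 0.19 ± 0.0311 in Hepa1-6, at least 1.23-fold lower, and miR-200b* was at 0.228 ± 0.0499 and 0.128 ± 0.0172, or 1.79-fold higher. miR-210, the miRNA most tied to low oxygen, differed by 1.04-fold, at 0.645 ± 0.0322 and 0.667 ± 0.0597. miR-130a, the single member of its family on 4 probes, was at least 1.77-fold higher in Hca-F. The families of miR-23-27-24, miR-30, miR-29, miR-221, miR-26, miR-181 and the miR-290 cluster had no member, and miR-200b* was also the single member among 10 epithelial probes.

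**Figure D4:**
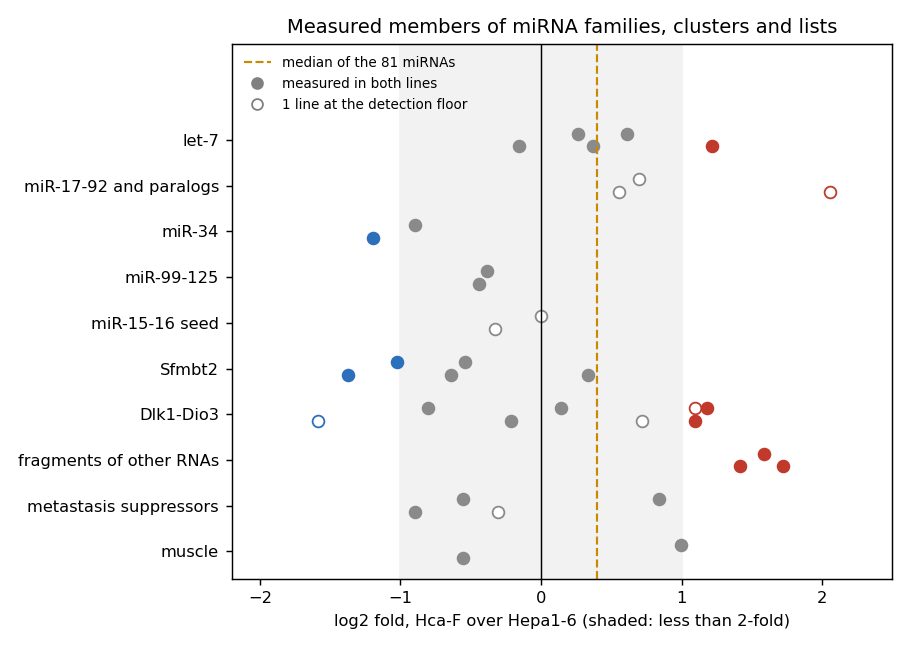
Log2 fold of Hca-F over Hepa1-6 for the members of lists with more than 1 member, with a point per member, open where it is a bound. The 3 pieces of other RNAs lie highest (median 1.58) and the Sfmbt2 (-0.64) and miR-34 (-1.04) members lie lowest, against 0.40 over all members.

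Members at a level of 1 or more in both lines with the smallest differences were miR-468, miR-695, miR-667, miR-184 and let-7b. miR-667 was at 3.94 ± 0.615 in Hca-F and 4.57 ± 0.554 in Hepa1-6, or 1.16-fold lower, and miR-184 at 2.05 ± 0.586 and 1.62 ± 0.185, or 1.27-fold higher, a direction that quantile normalization turned (log2 -0.23). The 2 brightest members besides miR-709 were miR-298, at 24.2 ± 2.87 and 15.8 ± 1.32, and miR-711, at 16.4 ± 1.45 and 11.6 ± 1.73. These were 1.53-fold and 1.42-fold higher in Hca-F with no overlap of spots, but quantile normalization turned each to a log2 fold of -0.42, and a minimum of 100 units turned miR-711 to -0.09. In the main scaling both shifts are close to the 1.32-fold that the median member showed (miR-452 at log2 0.40). miR-298 is another name with 2 probes that disagree, the dimmer giving 12.8 units in Hca-F and 35.5 units in Hepa1-6.

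Uneven spots touched several of these members. In Hca-F, 9 probes had 1 spot under 0.5 times the lowest of the other 3, and 7 of these were in the first spot set, among them miR-370, let-7e, miR-690, miR-801 and miR-710. In Hepa1-6 there were 7, including miR-351, miR-761, miR-710 and miR-744. Leaving out the first spot set gave 24 higher and 6 lower members, and leaving out any other set gave 19 to 22 higher and 6 to 8 lower.

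The members higher in Hca-F had a median GC content of 55.8% (16 with a RefSeq sequence, 36.4% to 81.8%), the lower ones 54.5% (5 with a sequence, 45.5% to 66.7%) and those within 2-fold 50.0% (41 with a sequence). Over the 48 members with a sequence that were measured in both lines, log2 fold and GC content correlated at r = 0.15 and rho = 0.09, across miRNAs and as a description only.

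The count of members rests on the minimum of 50 units. Those just above it by their higher intensity were miR-685 (54 units), miR-106b (59 units) and miR-500 (61.2 units). Those just below were miR-18a (49.2 units), miR-23a (48.8 units) and miR-338-3p (48 units).

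**Figure D5:**
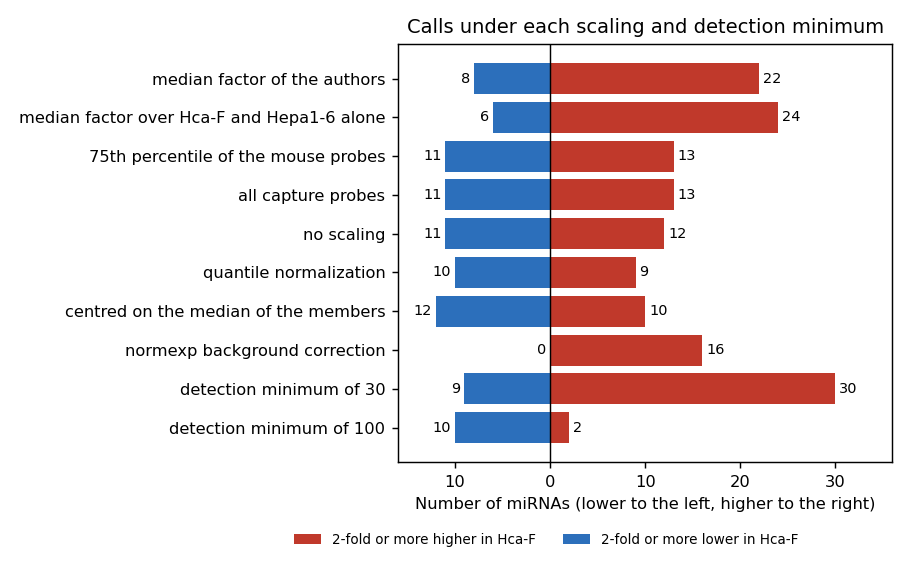
Number of members 2-fold or more higher and lower in Hca-F under settings of scaling, background and minimum, with bars to the right for higher and to the left for lower. The main setting gave 22 and 8, quantile normalization 9 and 10, and normexp background correction 16 and 0.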

How the data were processed

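Total RNA of 4 mouse lines was hybridised to miRCURY LNA arrays with the Hy3 label, 1 array per line, and the study deposited 4 spots per probe. Per the labels, slides were read on a GenePix 4000B scanner and extracted in GenePix Pro, for which the submitters' processing notes give versions 6.0, 6.1, 6.2 and 6.3. The authors deposited spot intensity on a linear scale, background-subtracted spot intensity, and the probe intensity divided by the median of their array. Here the background-subtracted spots were averaged again and divided by the median over the 65 reference probes at 50 units or more in all 4 arrays: 324.5 in Hca-F and 403.75 in Hepa1-6. Where 2 probes shared a name the brighter was kept. Analysis ran in Python 3.11.15 (numpy 2.4.6, pandas 2.3.3) and, for normexp with an offset of 50, R 4.3.3 with limma 3.58.1. The fold calculation was tested on simulated data with brighter probes, larger folds and tighter spots than most members had. That test does not cover dim members or bounds. Members, lists and thresholds were chosen with earlier results of these data known. Named in full were the largest folds and bounds, the brightest members, list members, the 5 smallest differences and the 3 probes on either side of the minimum. Precision is limited by having 1 array per line. Alternatives covered scaling, minimum, background, spot averaging, fold threshold and spot sets; spot sets and centring on the members were added after seeing the data. miRNAs without a RefSeq entry are named only.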

Additional observations from a re-analysis of the deposited data

Results flagged for a closer look

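Several internal control positions, which are not named for a mouse miRNA, gave a signal above the highest of the 7 negative controls (8 units). Position 1 reached 475 units, in Hca-P, with 448.75 in H22, 6.5 in Hepa1-6 and 6.25 in Hca-F. Position 3 reached 1843 units, position 4 reached 2873.25, position 8 reached 53.25 and position 10 reached 235.25. Position 4 gave 111.25 units in Hca-F and 169.25 in Hepa1-6, and position 10 gave 162 and 63.25. What these positions hold was not tested. Of 1595 probes marked as not designed for mouse, 18.9% were at 50 units or more in Hca-F or Hepa1-6, with 53 higher by 2-fold or more in Hca-F, 14 lower and a median log2 fold of 0.35.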

How the results depend on the processing

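No paired analysis was possible because each line has 1 array and the labels give no shared replicate numbers. The main setting gave 30 members apart, 22 higher and 8 lower, and a median log2 fold of 0.40. Quantile normalization gave 19 apart, 9 of them higher, with a median of -0.03, and turned miR-689 to -0.17. The 75th percentile of the mouse probes and all capture probes each gave 13 higher with a median of 0.10, and no scaling gave 12 with 0.09. A factor over the 2 lines alone gave a median of 0.53, and the median of spots 0.28. A minimum of 100 gave 12 apart, 2 of them higher, with a median of -0.22, and turned miR-744 to -0.08; this setting changes the members, the floor and the array factors together. No minimum gave 246 apart, 211 higher and 35 lower, median 1.08, over all 414 names, 333 of which are under 50 units in both lines. Normexp gave 16 apart and 0 lower. A threshold of 1.5-fold gave 48 apart and 36 higher, and 3-fold gave 6 apart, 6 higher and 0 lower. Requiring 2 combined spot SDs left 5 lower. Centring on the members, chosen after seeing the data, gave 10 higher and a median of 0.00, and leaving out spot set 1, also added then, a median of 0.51. For the lists, the Sfmbt2 median stayed below 0 and that of the pieces of other RNAs above 0 in each setting, while the let-7 median ran from -0.22 to 0.91. The cause of the other shifts was not tested. Signal over background limits the dim members, and the number of arrays limits every comparison.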

Other observations

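The array also carried miRPlus probes, the maker's own sequences. Of those at 50 units or more in Hca-F or Hepa1-6, 17 were measured, 8 were 2-fold or more higher in Hca-F and 0 lower, with a median log2 fold of 0.80. Set side by side, Hca-P over Hepa1-6 gave 28 higher and 22 lower of 89 members (median 0.07), and Hca-F over H22 gave 14 higher and 17 lower of 95 (median -0.09). These comparisons share arrays with Hca-F over Hepa1-6.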
